A study of Rattus norvegicus with 6 samples.

Results

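The levels of 10 miRNAs best known from blood vessels and connective tissue were followed in cultures of rat oligodendrocyte precursors, from which the myelin-forming oligodendrocytes of the brain arise. They were chosen by name, as the array probes for rno-miR-126a-3p, rno-miR-126a-5p, rno-miR-143-3p, rno-miR-145-5p, rno-miR-145-3p, rno-miR-199a-3p, rno-miR-199a-5p, rno-miR-214-3p, rno-miR-10a-5p and rno-miR-10b-5p, and make up 10 of the 761 rat miRNA probes on the array. The DIV3 group held 3 samples of precursors left to differentiate in Raff medium after a switch of growth factors. The DIV0 group held 3 samples of the same kind of precursors grown in Raff medium under what the labels call the normal condition. The description of the growth factor switch is the same for all 6 samples in the labels, so the groups rest on the titles and on the culture condition given for each sample. Genotype, strain and age of the rats are not given in the labels. The titles were read as days 0 and 3, so the effects of time in culture and of growth condition cannot be told apart. Every DIV0 array also lay at position 1 of its slide and every DIV3 array at position 2. An effect of position therefore cannot be told apart from that of condition either. Cy5-labelled RNA of 1 sample went on each single-colour array. The labelling step names a kit that amplifies mRNA, and the labels do not settle how the miRNAs themselves were labelled. Whether cultures were separate is not stated in the labels, and every p-value is therefore set by a spread between samples that could be purely technical.

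Endothelial cells line the vessels, mural cells (pericytes and smooth muscle cells) wrap them, and fibroblasts build the surrounding matrix. None of these cells belongs to the oligodendrocyte lineage. The miR-126 precursor lies in Egfl7, a gene made mainly by endothelial cells, and miR-126 is known for keeping vessels intact. The miR-143 and miR-145 precursors are known from smooth muscle, where they favour the contractile state. The miR-199a and miR-214 precursors are known from mesenchymal cells such as fibroblasts. The miR-10 precursors sit in the Hox clusters, whose genes are switched on by position along the body axis. In addition, miR-145, miR-199a and miR-214 have been described as brakes on oligodendrocyte differentiation, and for miR-199a-5p work on human cells named the myelin regulatory factor MYRF as a target. In RNA from a whole culture, fewer cells of a type and less RNA per cell cannot be told apart.

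The mature sequences show what each probe reads and how far related miRNAs can be separated. A mature sequence was found for all 10 in RefSeq (rat assembly GRCr8). They are printed 5′ to 3′ with the seed, bases 2 to 8, in capitals, the stretch by which a miRNA recognises most of its targets. The miR-126 arms come from the plus strand of chromosome 3 inside Egfl7, at chr3:29813219-29813240 for the 3p arm and chr3:29813182-29813202 for the 5p arm:
miR-126a-3p: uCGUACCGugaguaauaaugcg
miR-126a-5p: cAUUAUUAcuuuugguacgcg
The miR-143 and miR-145 sequences come from the minus strand of chromosome 18 inside the long non-coding gene Carmn, 1317 bases apart, at chr18:57371373-57371394 for miR-143-3p and chr18:57370033-57370055 for miR-145-5p, with miR-145-3p at chr18:57369997-57370017:
miR-143-3p: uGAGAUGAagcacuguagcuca
miR-145-5p: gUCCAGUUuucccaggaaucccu
miR-145-3p: gGAUUCCUggaaauacuguuc
The miR-199a and miR-214 sequences come from the plus strand of chromosome 13 within the span of Dnm3. Those of miR-199a-3p (chr13:77116294-77116315) and miR-214-3p (chr13:77121713-77121733) are 5397 bases apart, and miR-199a-5p lies at chr13:77116255-77116277:
miR-199a-3p: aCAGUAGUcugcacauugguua
miR-199a-5p: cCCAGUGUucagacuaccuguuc
miR-214-3p: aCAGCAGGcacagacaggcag
The miR-10 sequences come from plus strands, that of miR-10a-5p near Hoxb4 at chr10:81779730-81779752 and that of miR-10b-5p inside the span of Hoxd4 at chr3:80035886-80035907:
miR-10a-5p: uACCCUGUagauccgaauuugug
miR-10b-5p: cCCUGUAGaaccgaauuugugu
No seed as annotated was shared with another of the 685 array probes that have a RefSeq mature sequence. The miR-10 pair overlap over 21 bases with 1 difference, U12A counted from the 5′ end of miR-10a-5p, so each probe may also bind the other miRNA, which was not tested. Their annotated seeds differ because the RefSeq miR-10b-5p starts 2 bases further in. The opposite strand of the miR-126 locus carries miR-126b, whose annotated sequence overlaps that of miR-126a-5p over 17 bases.

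The arrays differed in brightness. Over the blank spots' mean, the median miRNA spot stood at 27.9, 44.7 and 33.1 units of intensity on the DIV3 arrays numbered 1, 2 and 3, and at 25.5, 37.7 and 5.87 units on the DIV0 arrays, of which the one numbered 3 was far dimmer. Intensities were therefore compared after background correction and quantile normalization, as log2 levels on a scale whose floor is 5.64, the log2 of the 50 units added to every spot. A miRNA counted as detected above the blank mean plus 2 SD of the blanks. Markers of the labelled cell type were present: all 5 probes listed for the oligodendrocyte lineage, of miR-219a, miR-338 and miR-138, were detected on all 6 arrays. All 5 rose in DIV3 (limma, adjusted p under 0.05), where 1.15% of all 695 tested miRNAs did. This list was chosen with earlier results of these data known, so its count is not an independent test. All 5 passed in 8 of 21 other settings of the processing, 1 to 4 passed in 5 settings and 0 in the remaining 8, where no miRNA of the array passed, while all 5 had log2 fold changes above 0 in 20 of the 21.

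Detection ranged from clear spots to the level of empty ones. The 3 members from the locus of miR-199a and miR-214 gave clear spots, the miR-10 pair, miR-143-3p and miR-145-5p gave faint ones, and the miR-126 arms and miR-145-3p were close to empty spots. Above the blank threshold were 10, 8 and 8 of the 10 on the DIV3 arrays numbered 1, 2 and 3, and 9, 7 and 8 on the DIV0 arrays. In all 7 of the 10 were detected on all 6 arrays, beside 70.4% of the 761 miRNAs. This threshold is lenient, since 32.6% to 45.2% of the 513 spots marked No Probe also passed it on an array. Against a stricter threshold taken from those No Probe spots in the same way, 9, 7 and 4 of the 10 passed on the DIV3 arrays and 8, 4 and 6 on the DIV0 arrays. By that standard 3 of the 10, miR-199a-3p, miR-199a-5p and miR-214-3p, were above it on all 6 arrays, beside 40.7% of all miRNAs.

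**Figure D1:**
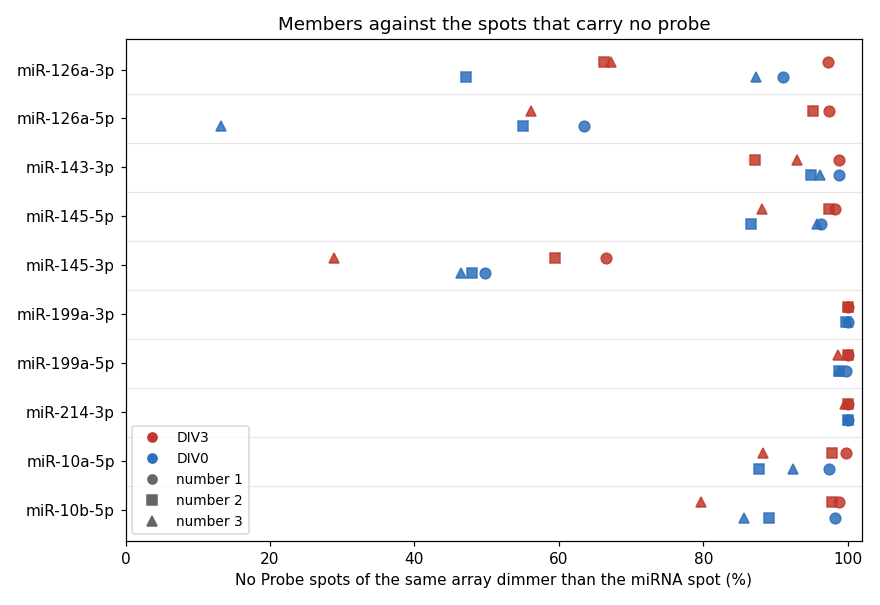
Each point is 1 array (DIV3 red, DIV0 blue, the replicate number by symbol), and the horizontal axis gives the percentage of the 513 No Probe spots of that array that were dimmer than the miRNA spot. The members miR-199a-3p, miR-199a-5p and miR-214-3p sit at 98.6% or more on all 6 arrays, while miR-126a-5p spreads from 13.3% to 97.5% and miR-145-3p from 28.8% to 66.5%.

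The order of brightness can be given only for spots, because probes differ in how well they bind, so it is not an order of abundance. By median rank among the 761 miRNA spots, where 1 is the brightest, miR-214-3p stood at 122.5 and miR-199a-3p at 158.5, followed by miR-199a-5p at 211.5. Next came miR-143-3p at 387, miR-10a-5p at 388, miR-10b-5p at 427.5 and miR-145-5p at 446.5. The dimmest were miR-126a-3p at 559.5, miR-126a-5p at 656 and miR-145-3p at 696. The ranges of rank over the 6 arrays overlapped between all neighbours in this order, for example 103 to 141 for miR-214-3p and 106 to 332 for miR-199a-3p. For scale, the liver miRNA miR-122-5p, which these cells are not known to make, had a median rank of 569, and of 6 epithelial miRNAs (the miR-200 group and miR-205), with median ranks of 468.5 to 648.5, 0 were above the No Probe threshold on all 6 arrays. The miR-126 arms and miR-145-3p had spots about as dim as these probes for miRNAs of unrelated tissues. Nor did miR-145-5p, miR-10a-5p and miR-10b-5p stand clear of them. These 3 passed the No Probe threshold on 4, 4 and 3 of 6 arrays, and the epithelial miR-200b-3p and miR-141-3p each on 4. Of 6 muscle miRNAs 2 were above that threshold on all arrays, miR-206-3p and miR-499-5p, at median ranks of 284.5 and 267.5. The muscle miRNA miR-133b-3p, at a median rank of 307.5, was brighter by rank than miR-143-3p, miR-145-5p and the miR-10 pair. A clear spot alone therefore does not identify a cell type.

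The design sets DIV3 against DIV0. Of the 9 members detected on at least 3 arrays, and so tested, 0 rose, where 1.15% of all 695 tested miRNAs did, and 0 fell, where 0.863% did (limma, adjusted p under 0.05, 2.01% of all in either direction). At an unadjusted p under 0.05 there was 1 of 9, beside 14.7% of all. The median log2 fold change of the 9 was -0.05, beside -0.0060 over all tested. With the replicate number as a block also 0 of 9 passed, where 3.74% of all did. The values of the groups did not overlap for 1 of the 9, miR-126a-5p, beside 18.8% of all tested miRNAs. The sign was the same in all 3 pairs of equal number for 3 of the 9 (miR-126a-5p and miR-10a-5p upward, miR-199a-3p downward), beside 37.8% of all.

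**Figure D2:**
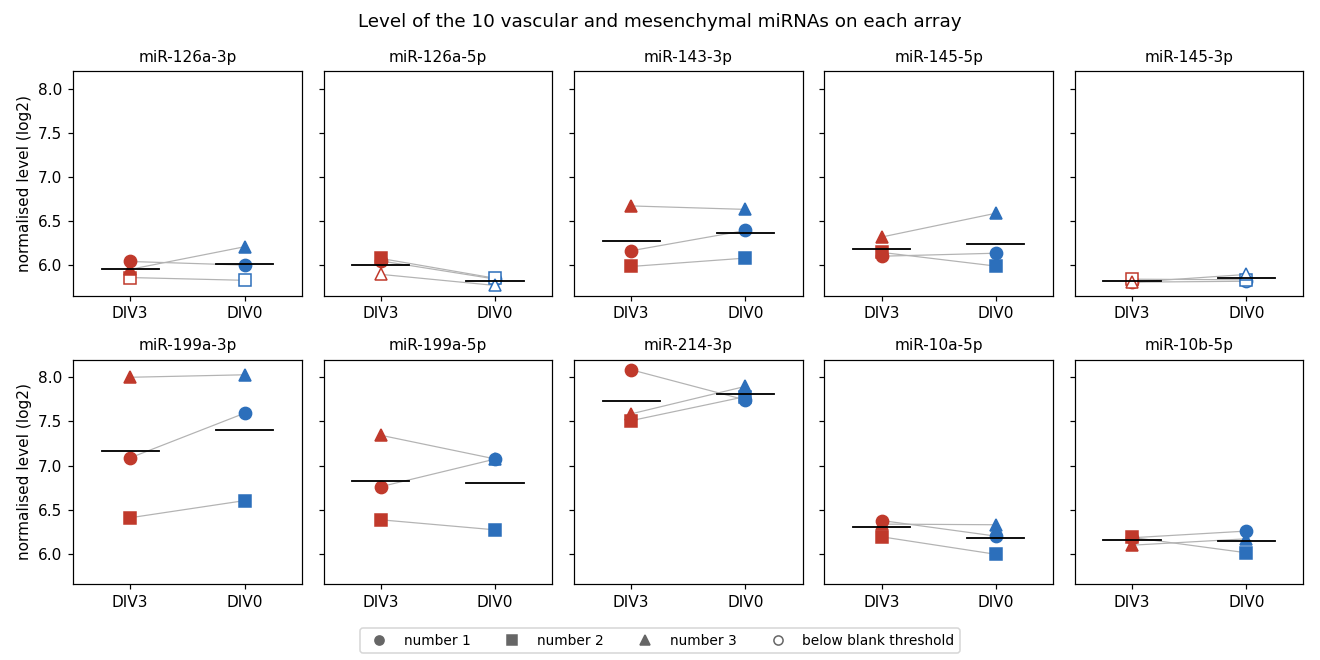
Normalised log2 level of the 10 miRNAs on each array, DIV3 (red) left of DIV0 (blue), with lines joining arrays of equal replicate number, black bars at group means (n = 3) and open symbols for spots under the blank threshold. The groups overlap in every panel but that of miR-126a-5p, and the spread is widest for miR-199a-3p, from 6.41 to 8.03.

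The miR-126 locus, the endothelial one, stayed close to background and did not change detectably. For miR-126a-3p, which is known for supporting the vascular growth factor response of endothelial cells, the log2 level was 6.04, 5.86 and 5.96 on the DIV3 arrays numbered 1, 2 and 3, against 6.003, 5.83 and 6.21 on the DIV0 arrays. The groups overlap a little above the floor, with detection on 2 of 3 arrays in either group. The log2 fold change was -0.06 ± 0.11 (SE, n = 3 per group, limma adjusted p = 0.86), with a 95% interval of -0.32 to 0.20. For its partner arm miR-126a-5p the level was 6.05, 6.08 and 5.90 in DIV3, against 5.85, 5.86 and 5.77 in DIV0. Every DIV3 value was above every DIV0 value, by little. In raw units above the blank mean these were 16.5, 27.3 and 10.04 in DIV3 and 5.95, 8.99 and -0.095 in DIV0, and detection held on 2 of 3 DIV3 arrays and 1 of 3 DIV0 arrays. The log2 fold change of 0.18 ± 0.07 had a 95% interval of 0.023 to 0.35 and a limma adjusted p of 0.28, so it was not called. The value depended on the processing: it was 0.41 with an offset of 16 and 0.46 in the deposited values, but 0.034 with median scaling and 0.017 with the local background, and none of these passed. Next to this spot lies that of miR-125b-5p, at 1337 to 9869 units, whose part in the values was not tested. From the opposite strand, miR-126b was above the No Probe threshold on 0 of 6 arrays. Its log2 fold change of -0.06 ± 0.07 therefore compares spots close to background.

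The locus of miR-143 and miR-145, the mural one, was faint but mostly detected. For miR-143-3p, a miRNA of contractile smooth muscle, the log2 level was 6.17, 5.99 and 6.67 in DIV3, against 6.39, 6.08 and 6.63 in DIV0. Both arrays numbered 3 were high and both numbered 2 low, and the groups overlap throughout. The log2 fold change was -0.09 ± 0.21 (adjusted p = 0.90, 95% interval -0.60 to 0.41). For miR-145-5p, known in smooth muscle for repressing the stem cell factor KLF4 and described as a brake on oligodendrocyte differentiation, the level was 6.10, 6.15 and 6.32 in DIV3, against 6.14, 5.99 and 6.59 in DIV0. Its groups overlap as well, and the fold change was -0.05 ± 0.16 (adjusted p = 0.93, interval -0.43 to 0.33). The passenger arm miR-145-3p passed the blank threshold on 1 of 3 DIV3 arrays and 0 of 3 DIV0 arrays and was not tested. Its levels spanned 5.81 to 5.84 in DIV3 and 5.82 to 5.90 in DIV0, and no fold is given because both groups lay at background. The other arm of the miR-143 precursor, miR-143-5p, gave a clear spot on all 6 arrays with a median rank of 143.5, and its log2 fold change was -0.03 ± 0.11.

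The locus of miR-199a and miR-214, the mesenchymal one and the source of both other described brakes, gave the brightest spots among the members and the widest spread. For miR-199a-3p the log2 level was 7.09, 6.41 and 8.0 in DIV3, against 7.59, 6.61 and 8.03 in DIV0. The arrays numbered 3 were the highest and those numbered 2 the lowest in either condition. The fold change of -0.24 ± 0.50 had an interval of -1.43 to 0.95 (adjusted p = 0.89). With the replicate number as a block, which takes out the difference between numbers, the SE was 0.10 and the interval -0.49 to 0.0044 (unadjusted p = 0.053, limma adjusted p = 0.27), and the differences within the pairs numbered 1, 2 and 3 were -0.50, -0.19 and -0.03. Under median scaling the fold change was 0.17, without passing. For miR-199a-5p, the arm described as a brake through MYRF, the level was 6.76, 6.39 and 7.34 in DIV3, against 7.07, 6.28 and 7.08 in DIV0. Again the arrays numbered 2 were lowest in both conditions, and the fold change was 0.02 ± 0.31 (adjusted p = 0.99, interval -0.72 to 0.77). For miR-214-3p, described as a brake too, the level was 8.09, 7.51 and 7.59 in DIV3, against 7.74, 7.78 and 7.90 in DIV0. One DIV3 array was above and the other two were below all DIV0 arrays, which lay close together. Its fold change was -0.08 ± 0.15 (adjusted p = 0.88, interval -0.45 to 0.29). With median scaling of the arrays it stood at 0.42 in place of -0.08, without passing. Its passenger arm miR-214-5p was faint, above the No Probe threshold on 4 of 6 arrays, with a median rank of 520.5 and a fold change of -0.01 ± 0.08.

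Of the miRNAs described as brakes, 0 of 3 thus passed in either direction. The lower ends of their 95% intervals were -0.45 for miR-214-3p, -0.43 for miR-145-5p and -0.72 for miR-199a-5p on the log2 scale, and -0.42, -0.28 and -0.26 with the replicate block. On this scale larger falls lie outside these intervals and smaller ones inside them. The added 50 units hold the fold changes of faint spots near 0, so a larger fall in signal could lie inside the interval of miR-145-5p. With an offset of 16 the SE of miR-145-5p was 0.27, in place of 0.16.

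The miR-10 loci gave faint and even values. For miR-10a-5p, from the Hoxb cluster, the log2 level was 6.38, 6.20 and 6.34 in DIV3, against 6.20, 5.998 and 6.33 in DIV0. Each DIV3 array was above the DIV0 array of its number, while the groups overlap. The fold change was 0.13 ± 0.10 (adjusted p = 0.68, interval -0.11 to 0.37). Its spot lies beside that of miR-9a-5p, the brightest miRNA of these arrays at 3435 to 29615 units, and the part of that neighbour was not tested. For miR-10b-5p, from the Hoxd cluster, the level was 6.19, 6.19 and 6.10 in DIV3, against 6.26, 6.02 and 6.17 in DIV0. Its values overlap fully, and its fold change of 0.0088 ± 0.08 had an interval of -0.18 to 0.19 (adjusted p = 0.99). Of the other arms, miR-10a-3p was above the No Probe threshold on 1 of 6 arrays with a fold change of -0.10 ± 0.08, and miR-10b-3p was detected on 0 of 6 arrays.

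**Figure D3:**
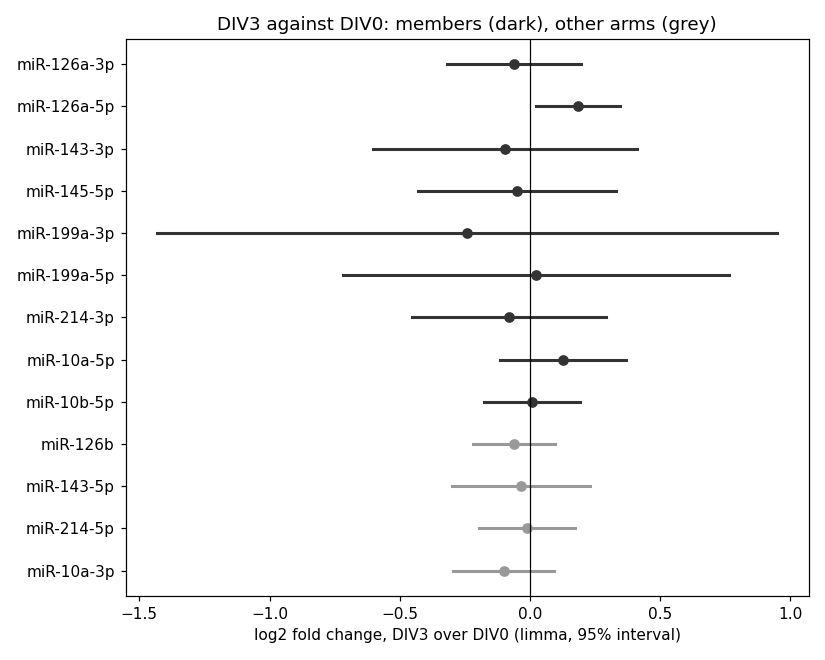
Points give the log2 fold change of DIV3 over DIV0 and lines its 95% interval (limma, n = 3 per group) for the 9 tested members (dark) and 4 tested other arms of the same loci (grey). The interval of miR-126a-5p alone lies on one side of 0, at 0.023 to 0.35 before any adjustment, and that of miR-199a-3p is the widest.

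Of the 5 other arms of these loci 4 were tested and 0 rose or fell, with a median log2 fold change of -0.05. Of 7 other miRNAs of the Hox clusters (miR-196 arms and miR-615) all 7 were tested and 0 rose or fell, with a median of -0.0056. Of 9 further miRNAs described in vascular or mesenchymal cells 0 rose and 0 fell without the block. The lowest p-values among these belonged to miR-222-3p (-0.45 ± 0.17, limma adjusted p = 0.30, which became 0.035 with the replicate block), miR-221-3p (-0.46 ± 0.23, adjusted p = 0.46) and miR-322-5p (0.46 ± 0.25, adjusted p = 0.49). Of the 9, 8 were above the No Probe threshold on all arrays.

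Some of these miRNAs stood apart between replicate numbers. The comparison of numbers was chosen after the values were seen. In a fit with condition and number together, 1 of the 9 tested members, miR-199a-3p, differed between numbers (limma F test, F = 75.5, adjusted p = 0.019), where 0.719% of all tested miRNAs did. Its mean log2 level was 7.34, 6.51 and 8.01 for the pairs of arrays numbered 1, 2 and 3 (n = 2 each), a range of 1.51 that was the 3rd largest of 695, against a median range of 0.15. For miR-199a-5p the means were 6.92, 6.33 and 7.21 (F = 19.6, adjusted p = 0.12), and for miR-143-3p 6.28, 6.04 and 6.65 (F = 23.5, adjusted p = 0.083). Neither passed here. In the deposited values both passed with miR-199a-3p (limma F test, adjusted p = 0.049, 0.049 and 0.0067). These were 3 of the 7 members tested there, beside 4.3% of the 535 miRNAs tested there. With the background from the No Probe spots miR-199a-3p had an adjusted p of 0.060, with median scaling 0.77 and with the local background 0.84. In each of these settings 0 of all 695 miRNAs passed, so they do not single out miR-199a-3p. It passed alone with cyclic loess (2.16% of all), with an offset of 16 (1.01%) and with array weights (0.719%). Without the DIV3 array numbered 1 it had 0.20 and without the DIV0 array numbered 1 it had 0.30, where 0 of all 695 passed in either case. Without the DIV3 array numbered 3 it had 0.065 (0.144% of all), while without the dim DIV0 array numbered 3 it kept 0.023 (1.01%). Without the DIV3 array numbered 2 the count was 4 of 9, where 15.4% of all miRNAs passed.

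Both arrays numbered 3 lay above the other 4 arrays for 4 of the 9 tested members, miR-199a-3p, miR-199a-5p, miR-143-3p and miR-145-5p, beside 8.35% of all tested. The number means ran in the order 3, 1, 2 for 6 of 9, beside 16.3% of all. Both patterns were picked after these members' values were seen, so the counts describe the members and test nothing. Nor are the members independent, since both miR-199a arms share a precursor and miR-143-3p and miR-145-5p share a locus. By contrast miR-214-3p, which shares a locus with miR-199a, had number means of 7.91, 7.65 and 7.74 (adjusted p = 0.64) and the miR-10b-5p means were 6.22, 6.10 and 6.14 (adjusted p = 0.74). The other 4 miRNAs that differed between numbers were miR-146a-5p, miR-146b-5p and miR-223-3p, known from inflammation and myeloid cells, and miR-204-5p. All 4 were highest on average in the arrays numbered 2, where miR-199a-3p was lowest, with miR-204-5p at 7.70, 8.76 and 8.61 for the numbers 1, 2 and 3 and miR-223-3p at 7.47, 8.41 and 7.41 (adjusted p = 0.019 for both). Over the whole list of 6 blood and microglia miRNAs the mean log2 level was 6.45, 6.79 and 6.44 for the numbers 1, 2 and 3, and 3 of 6 were above the No Probe threshold on all arrays. Of the red cell miRNAs in the list, miR-144-3p was detected on no array and miR-451-5p on all 6, above the No Probe threshold on 1. The list mean ranged over 6.36 to 6.68 in DIV3 and 6.44 to 6.90 in DIV0. The part of these cells in the differences was not tested. The number also goes with the slide, since both arrays numbered 1 shared a slide, as did both numbered 2, while those numbered 3 lay on separate slides. Number and slide therefore cannot be told apart for 1 and 2. The brightest spot beside that of miR-199a-3p was miR-762, at 600 to 3565 units. Its normalised means were 10.88, 10.94 and 10.92 for the numbers 1, 2 and 3 (limma F test, adjusted p = 0.94). Between conditions miR-762 fell in DIV3, with a log2 fold change of -0.47 (limma adjusted p = 0.036). The part of this neighbour in the miR-199a-3p values was not tested. On 1 array the local background of the miR-199a-3p spot was above the spot itself.

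**Figure D4:**
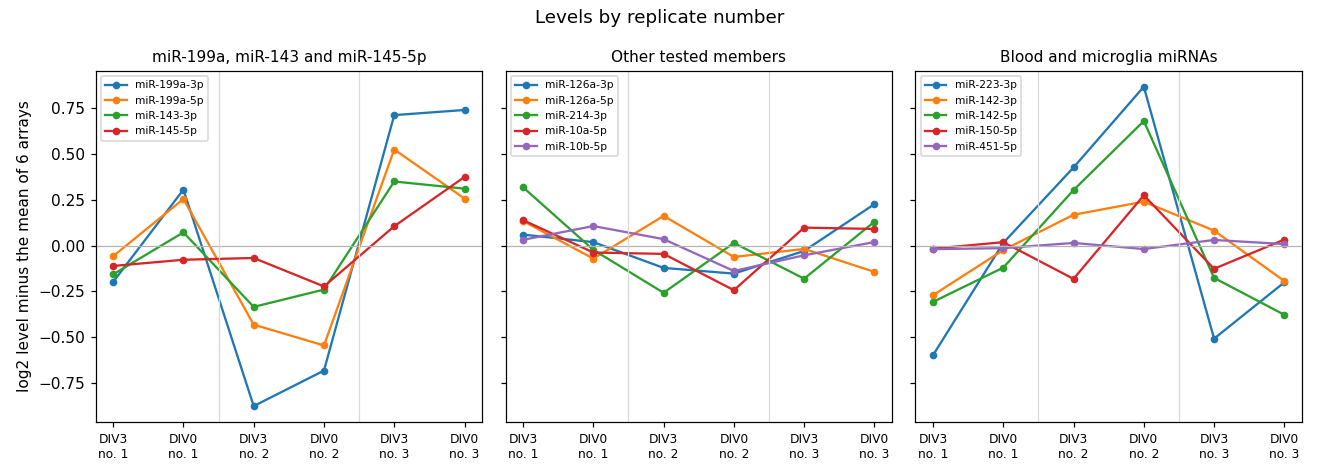
Each line gives the log2 level of 1 miRNA on the 6 arrays minus its own mean over them, with DIV3 left of DIV0 within each replicate number. The left panel falls at number 2 and is high at number 3 for both miR-199a arms and miR-143-3p, the middle panel is flatter, and the right panel shows miR-223-3p and miR-142-5p high at number 2.

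Patterns over the 6 arrays were compared by the root mean square difference of log2 levels after each miRNA's own mean was taken off. The miRNA most like miR-199a-3p among 693 others was its own second arm miR-199a-5p (0.29), before miR-449a-5p (0.34), miR-135a-5p (0.35) and, at rank 4, miR-143-3p (0.38). Its locus partner miR-214-3p came at rank 278. The other leading miRNAs vary little, with SDs over the arrays of 0.14, 0.21 and 0.085 for miR-126a-3p, miR-145-5p and miR-10b-5p, and by this measure any even profile is close to them. Closest to miR-126a-3p were miR-293-3p (0.030), miR-410-3p (0.037) and let-7c-1-3p (0.056), with its partner miR-126a-5p at rank 512. Closest to miR-145-5p were miR-409a-5p (0.059), miR-125a-3p (0.084) and miR-3084c-3p (0.086), with miR-143-3p at rank 86. Closest to miR-10b-5p were miR-31b (0.034), miR-139-5p (0.035) and miR-383-3p (0.037), with miR-10a-5p at rank 262.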

How the data were processed

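Total RNA was labelled with Cy5 and put on 1 array per sample, per the labels, whose labelling step names an mRNA amplification kit and leaves the labelling of miRNAs unsettled. The scanner files give a median intensity for each spot and its surroundings, merged from scans at several gains and without correction or normalization, per the file headers. The deposited value table holds intensity on a linear scale: per column its values run linearly with the spot's (largest residual 0.521 units), are 0 at the blank mean and have a median of 25. It served as an alternative, as log2(value + 16), and had 6 columns, all mapped.

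Background was removed with limma 3.58.1 (R 4.3.3), by normexp with the 1664 blank spots as negative controls and an offset of 50, and log2 values of the 761 miRNA probes were then quantile-normalized. Flagged spots were left out. Detection limits leave out the highest and lowest 5% of blanks. The 695 miRNAs detected on at least 3 arrays were tested with lmFit and eBayes, two-sided, with Benjamini-Hochberg adjustment over all of them; an F test with 2 numerator degrees of freedom compared the replicate numbers. The number of arrays limits the precision. Only the limma fit was tested on simulated data, with independent values around the normalised means. Background correction, normalization, detection and differences between replicate numbers were not simulated. Deviations from the group means correlated within each number (r = 0.37, 0.54 and 0.47). The numbers were therefore treated as pairs in the differences within pairs and in the fit with the replicate block. The main fit has no block, and its SEs, intervals and p-values do not use the pairs. Members and lists were chosen with earlier results of these data known. All 10 members are named, with up to 3 miRNAs of lowest p from each related list and the 3 patterns most like those of 1 leading miRNA per locus.

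Alternatives were the replicate block, other background, offset, scaling and filter settings, the slide as a block, array weights, the deposited values and leaving out arrays. Blank spots were preferred to the local background because earlier work on these data found that the local background follows the spot. With the local background, 1 of the 5 oligodendrocyte lineage probes and 1 of all miRNAs passed between DIV3 and DIV0 (limma). The comparison of numbers with its alternatives, the marker counts by setting and the blocked intervals were added after the data were seen.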

Additional observations from a re-analysis of the deposited data

How the results depend on the processing

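In the 13 of 21 alternative settings that called any miRNA, the replicate block among them, 0 members passed in either direction between DIV3 and DIV0. In the other 8 (the deposited values, the slide as a fixed block and 6 sets without 1 array or 1 pair) 0 of all miRNAs passed by limma, with 54 to 87 at an unadjusted p under 0.05, so 0 members there says nothing about stability. Their log2 fold changes kept their sign in 150 comparisons of a member with a setting and turned in 37, none of them past the threshold, and the cause was not tested. Under median scaling miR-145-5p stood at 0.019, miR-199a-3p at 0.17, miR-214-3p at 0.42 and miR-10b-5p at -0.025. Under cyclic loess miR-126a-3p stood at 0.013 and miR-145-5p at 0.068. With the local background miR-199a-5p stood at -0.032, miR-214-3p at 0.22, miR-10a-5p at -0.017 and miR-10b-5p at -0.029. In the deposited values miR-214-3p stood at 0.12. With the slide as a fixed block the values were 0.036 for miR-126a-3p, 0.061 for miR-145-5p, -0.099 for miR-199a-5p and 0.035 for miR-214-3p, with it as a random block -0.013 for miR-199a-5p, and with array weights -0.077 for miR-199a-5p and -0.0032 for miR-10b-5p. Without 1 array or 1 pair the ranges were -0.15 to 0.042 for miR-126a-3p, -0.28 to 0.046 for miR-143-3p, -0.17 to 0.14 for miR-145-5p, -0.64 to 0.12 for miR-199a-3p, -0.24 to 0.23 for miR-199a-5p, -0.29 to 0.053 for miR-214-3p, 0.14 to 0.25 for miR-126a-5p, 0.037 to 0.23 for miR-10a-5p and -0.060 to 0.064 for miR-10b-5p.

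Of the 60 member spots 50 were above the blank threshold, 47 with 3 SD and 38 with the No Probe threshold. The count over all miRNAs was 14, and 26 with the replicate block, 4 with median scaling, 1 with the local background, 6 with an offset of 16, 0 in the deposited values, 0 and 29 with the slide as a fixed and a random block, and 0 to 13 without 1 array or 1 pair. The count of members that differ between the numbers was 1 of 9. It was 0 with the No Probe background, the local background or median scaling. In those settings no miRNA of the array passed, so 0 members there says nothing about stability. The count was 3 of the 7 tested in the deposited values and 0 to 4 without 1 array. The low signal over background limits the miR-126, miR-143-3p, miR-145 and miR-10 probes, where the added 50 units hold fold changes near 0. For miR-143-3p the log2 fold change was -0.09 in the main fit and -0.18 with an offset of 16.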
